A study of Drosophila melanogaster
Mus musculus with 21 samples.

Results

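Receptors for neurotransmitters are the proteins through which neurons sense each other. The genes described are 93, of 19397 gene symbols measured in mouse embryonic stem cells. They were matched by symbol, and the set was chosen with earlier results of these data known. The symbols were those of the GABA-A (Gabra, Gabrb, Gabrg, Gabrr), ionotropic glutamate (Gria, Grik, Grid, Grin) and metabotropic glutamate (Grm) receptor genes. With them were the nicotinic (Chrna, Chrnb), muscarinic (Chrm), glycine (Glra, Glrb), serotonin (Htr), dopamine (Drd) and adrenergic (Adra, Adrb) receptor genes. These symbols matched 96 entries, and where a symbol had more than 1 entry, as 3 symbols did, the one with the most reads in untreated cells was kept. Of the 93 genes 92 encode receptor subunits, and 1, Grid2ip, encodes a postsynaptic scaffold and was matched by its symbol. Counts of receptor genes and of glutamate receptor genes below include Grid2ip. By transmitter, 27 genes belonged to glutamate, 18 to acetylcholine, 15 to GABA, 14 to serotonin, 9 to noradrenaline and adrenaline, 5 to glycine and 5 to dopamine.

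Nuclear RNA was sequenced with Drosophila SG4 cells added as a spike-in, in 7 groups of 3 biological replicates. The PRC1deg line, E14 cells with Rosa26::Tir1, has lost Ring1A in every group, controls included, and carries AID-Ring1B, so that auxin removes the last catalytic subunit of Polycomb repressive complex 1. Its cells received 500 µM auxin for 2, 4, 8 or 24 h or were left untreated. The PRC2deg line, E14 cells with Pcgf2-HaloTag and dTAG-Suz12, received 100 nM dTAG-13 for 2 h or was left untreated, and the tagged SUZ12 is a core subunit of Polycomb repressive complex 2. Both tags act on protein, so RNA levels do not check the depletion, and the labels do not say how many clones stand behind each line.

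Ligand-gated receptors are assembled from several subunits around an ion pore and act within milliseconds, while G protein-coupled receptors signal more slowly through second messengers. In stem cells the genes of many neuronal proteins have CpG-rich promoters bound by Polycomb complexes, which repress them until differentiation. PRC1 places ubiquitin on histone H2A and PRC2 places methyl groups on histone H3.

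The values are the authors' log2 fold changes, treated over untreated, and adjusted p-values, 1 of each per gene and comparison. No value per library was analysed here, so the spread between replicates enters only through the adjusted p. A gene was called higher or lower where the adjusted p of the authors' DESeq2 comparison was under 0.05 and the fold change over 1.5. Untreated reads are the authors' normalised reads per kilobase, a mean over the 3 untreated libraries, multiplied by gene length. Across all entries that had at least 50 untreated reads, the median log2 fold change at 2, 4, 8 and 24 h of auxin was 0.15, 0.40, 0.50 and 0.24, and counts of genes past the same thresholds after subtraction of this median are called centred below. All 4 auxin comparisons share the same untreated libraries, and differences between times were not tested. In these bulk samples, more cells expressing a gene and more RNA per cell cannot be told apart.

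Most receptor genes had little RNA in the untreated stem cells. Per length, the median receptor gene had 0.570 normalised reads per kilobase in untreated PRC1deg cells, against 12.3 for all symbols. In untreated PRC2deg cells the median was 0.713, against 10.7 for all symbols. Reads were 80 bp long in PRC1deg and 40 bp in PRC2deg, so line and read length cannot be told apart. Of the 93 genes 36 had 50 or more untreated reads in PRC1deg, 34 had under 10, and 4, Adra2c, Chrna6, Gabra6 and Htr2b, were listed at 0. The receptor genes together held 0.106% of the untreated PRC1deg reads summed over all symbols, with 1 entry per symbol.

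A few receptor genes stood well above this floor in untreated cells, on the scale of normalised reads per kilobase. Adrb3, the beta-3 adrenoceptor known from fat cells, had the highest level at 150.1, which was above 90.8% of all symbols. The kainate receptor subunit Grik3 stood at 33.2, the muscarinic receptor Chrm4 at 28.9, the nicotinic subunit Chrna7 at 23.5 and Chrna9 at 22.8. In untreated PRC2deg cells, scaled separately, Adrb3 also had the highest level at 142.3, while Chrna9 stood at 33.8 and Grik3 at 31.0. At the other end, Gria2 had 0.0269 normalised reads per kilobase in PRC1deg. Of these genes Adrb3, Chrm4, Chrna7 and Chrna9 were called at no auxin time.

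**Figure D1:**
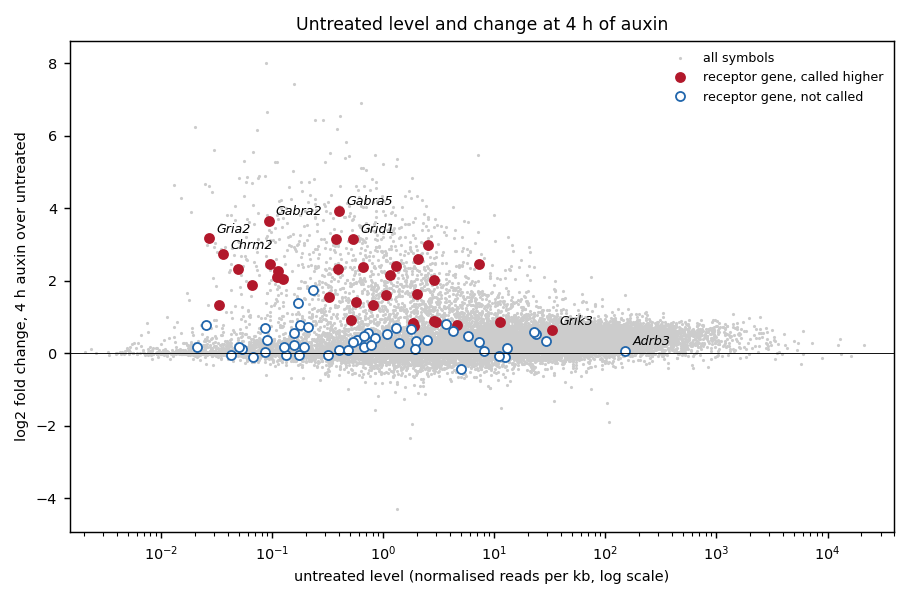
Log2 fold change at 4 h of auxin over untreated cells, by the authors' deposited table (vertical axis), against untreated level in normalised reads per kilobase on a log scale (horizontal axis). Each point is a named receptor gene or another gene with an untreated level above 0: grey for all symbols, filled red for receptor genes called higher and open blue for receptor genes not called. Adrb3 sits at the right near 0, and Gabra5 and Gabra2 stand highest among receptor genes plotted.

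After auxin, receptor genes were called higher at every auxin time while none was called lower by the DESeq2 values of the authors, with or without a fold threshold. Unadjusted p-values were not analysed here. At 2 h of auxin 21 of the 89 receptor genes with an adjusted p were higher, or 23.6%, against 5.52% of all symbols. At 4 h 37 of 85 were higher, against 16.0% of all symbols, and at 8 h 41 of 81, against 25.5%. At 24 h 28 of 85 were higher, against 11.4% of all symbols. Of receptor genes 0 were lower at these times, against 0.25%, 0.128%, 0.0808% and 0.602% of all symbols, or 0.256%, 0.128%, 0.0808% and 0.602% without a fold threshold. Centred, 20, 29, 33 and 27 receptor genes were higher at 2, 4, 8 and 24 h, against 5.43%, 9.68%, 10.5% and 9.56% of all symbols.

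Over the 4 times, 45 receptor genes were called higher at 1 time or more, against 26.5% of all symbols, and 16 at every time, against 4.74%. The 45 became 39 past a 2-fold change, against 12.0% of all symbols, and 36 at an adjusted p under 0.01, against 13.3%. They became 38 when centred, against 12.2%, and 42 without the 24 h libraries, against 25.8%. The 16 genes called at every time were Adra1d, Adra2a, Adra2c, Adrb1, Gabra2, Gabra4, Gabra5, Glrb, Grid1, Grin2a, Grin3a, Grm3, Grm4, Grm8, Htr5b and Htr7.

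Over the receptor genes the median log2 fold changes at 2, 4, 8 and 24 h were 0.13, 0.63, 0.74 and 0.35, against 0.11, 0.32, 0.44 and 0.19 over all symbols. Without the genes listed at 0 untreated reads the receptor medians were 0.13, 0.65, 0.75 and 0.35. At 2 h the typical receptor gene thus lay near the typical gene of the whole table, and the calls came from a minority with large changes. Of the 92 genes with a fold change, the highest value came at 2 h in 4 genes and at 4 h in 38, while 40 had it at 8 h and 10 at 24 h.

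Receptor genes with more and with fewer reads both held calls. With 50 or more untreated reads, 8, 19, 20 and 12 of 36 receptor genes were higher at 2, 4, 8 and 24 h, against 4.12%, 14.6%, 25.4% and 8.94% of symbols with as many reads. With 10 to 50 reads, 8, 10, 11 and 11 of 23 were higher, against 11.0%, 20.4%, 25.1% and 19.5%. Among receptor genes under 10 reads 5 of 30, 8 of 26, 10 of 22 and 5 of 26 were higher, against 7.44%, 20.3%, 27.5% and 18.6% of such symbols, so that at 24 h the least abundant receptor genes lay near their background.

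**Figure D2:**
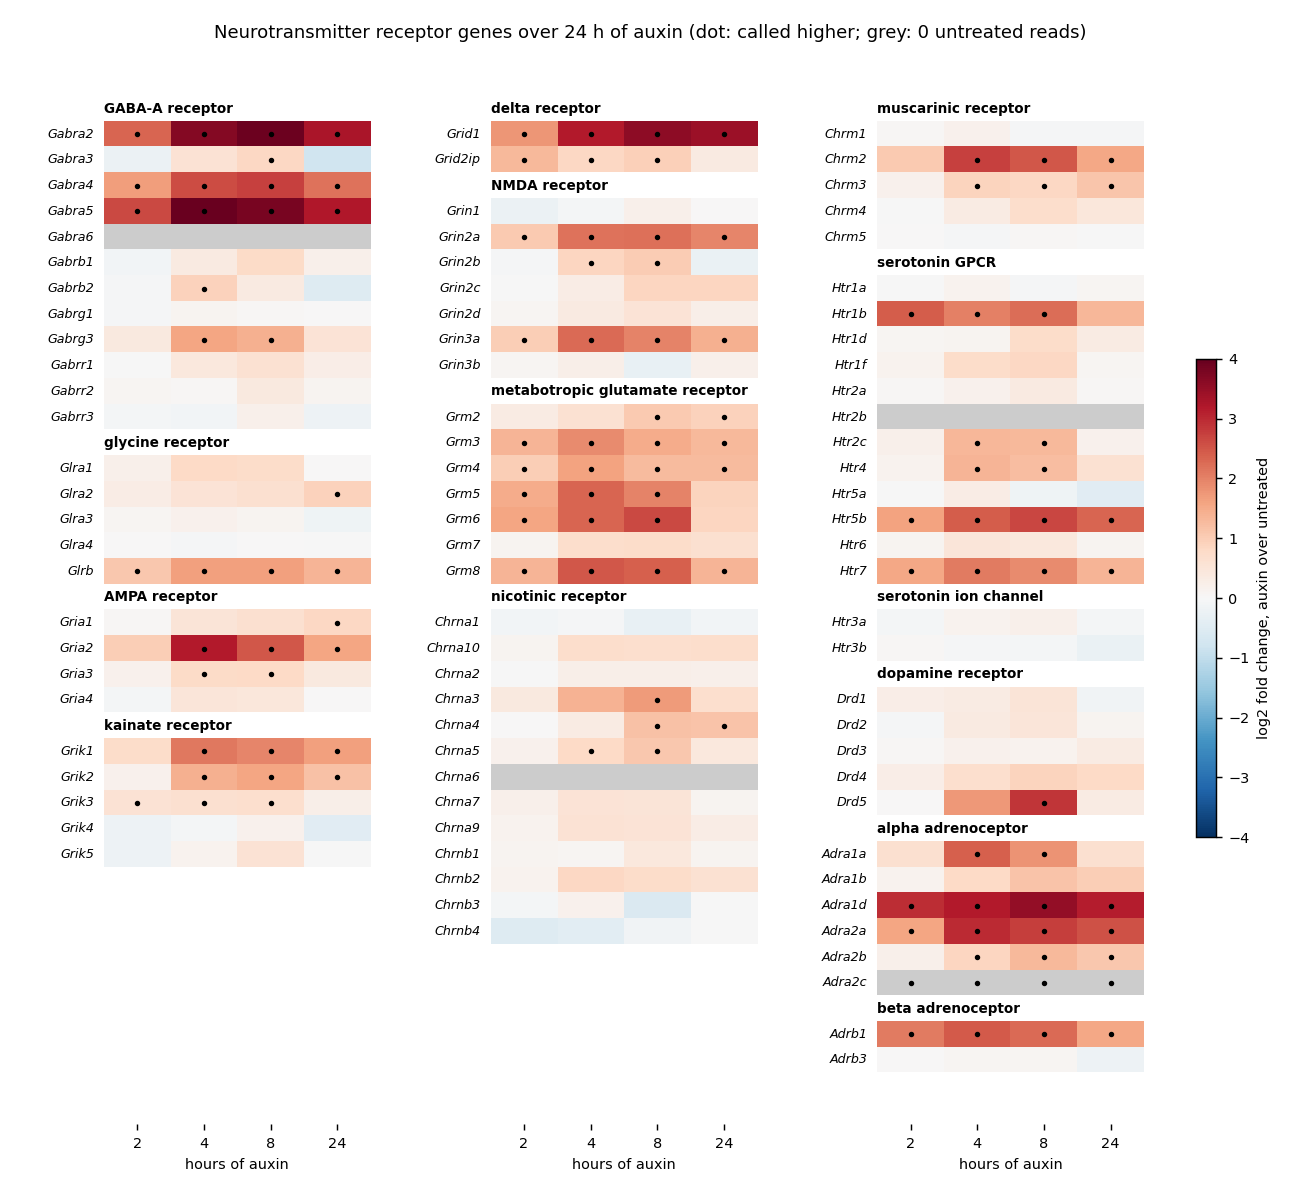
Log2 fold changes of the receptor genes named in the text at 2, 4, 8 and 24 h of auxin over untreated cells by the authors' deposited table, as colour from blue (lower) to red (higher), in rows by receptor family. A black dot marks a gene called higher, and rows of genes listed at 0 untreated reads are grey. Gabra2, Gabra5, Grid1 and Adra1d form the darkest rows, while the serotonin ion channel rows are pale, as are those of Drd1, Drd2 and Drd3.

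Glutamate and noradrenaline receptor genes held the largest shares of calls at 2 h. Among the noradrenaline genes called at that time, only Adrb1 had 10 or more untreated reads. At 2 h the counts with an adjusted p were 10 of 27 for glutamate, 4 of 9 for noradrenaline, 3 of 14 for GABA, 3 of 13 for serotonin, 1 of 5 for glycine, 0 of 16 for acetylcholine and 0 of 5 for dopamine. At 4 h they were 16 of 27, 6 of 9, 6 of 12, 5 of 12, 1 of 4, 3 of 16 and 0 of 5 in the same order of classes. The shares over all symbols were 5.52% at 2 h and 16.0% at 4 h. Of the genes with an adjusted p at some time, 18 of 27 glutamate, 6 of 9 noradrenaline, 8 of 14 GABA, 5 of 13 serotonin, 2 of 5 glycine, 5 of 16 acetylcholine and 1 of 5 dopamine receptor genes were called higher at 1 time or more, against 26.5% of all symbols. Past a 2-fold change 5 acetylcholine and 1 dopamine receptor genes were called, against 12.0% of all symbols, and centred 4 and 1, against 12.2%. No test between classes was made. The glutamate counts include the scaffold gene Grid2ip, called at 2, 4 and 8 h, which is left out of the counts by mechanism. By mechanism, 12 of 37, 18 of 36, 20 of 35 and 13 of 36 genes for G protein-coupled receptors were higher at 2, 4, 8 and 24 h. For ion channel subunits the counts were 8 of 51, 18 of 48, 20 of 45 and 15 of 48, and for all symbols the shares were 5.52%, 16.0%, 25.5% and 11.4%.

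**Figure D3:**
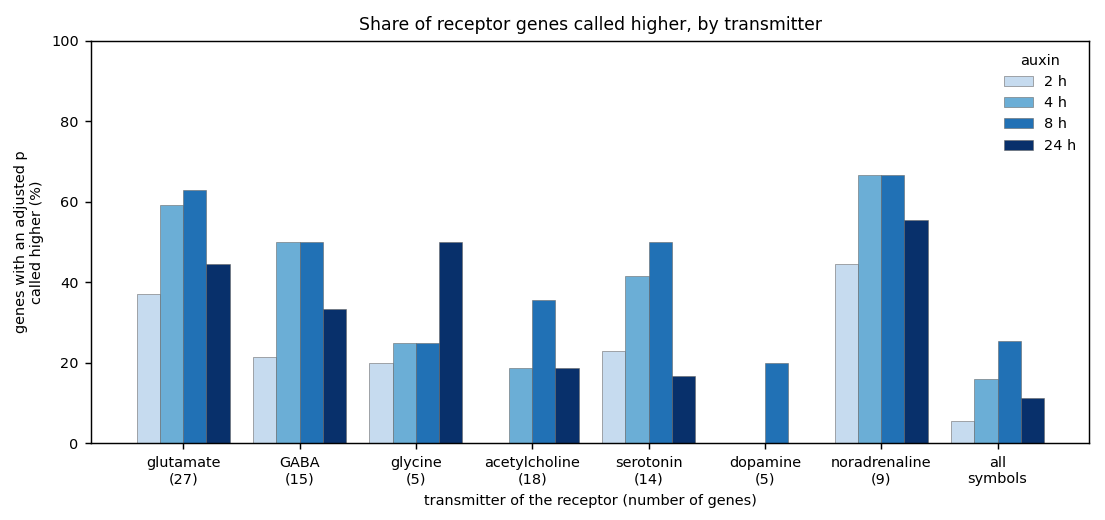
Share of genes with an adjusted p that were called higher (vertical axis, percent), by transmitter (groups of bars, with the number of genes) at 2, 4, 8 and 24 h of auxin (light to dark bars), with all symbols at the right. Glutamate and noradrenaline receptor genes have the highest bars at 2 h, with 10 of 27 and 4 of 9 genes, and acetylcholine and dopamine receptor genes have none at that time. Of the 4 noradrenaline genes only Adrb1 had 10 or more untreated reads, and the glutamate genes include the scaffold gene Grid2ip.

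GABA-A receptors are chloride channels, mostly of alpha, beta and gamma subunits, and the main inhibitory receptors of the brain. Among the 15 GABA-A genes, alpha subunits had the largest changes. Gabra5, an alpha subunit of hippocampal receptors, had log2 fold changes of 2.65, 3.94, 3.81 and 3.20 at 2, 4, 8 and 24 h by the authors' deposited table, on 41.1 untreated reads, with an adjusted p of 3.6e-09 at 2 h. Gabra2 came to 2.33, 3.66, 3.93 and 3.27 by the authors' deposited table, on 12.5 untreated reads. Gabra4, with more untreated reads at 183, came to 1.66, 2.61, 2.73 and 2.17 by the authors' deposited table. These 3 alpha genes were called higher at each time.

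Other GABA-A subunits were called at some times. Gabrg3 came to 0.39, 1.57, 1.41 and 0.54 by the authors' deposited table and was called at 4 and 8 h. Gabra3 was called at 8 h with 0.82 and stood at -0.79 at 24 h by the authors' deposited table (adjusted p = 0.051, not called). Gabrb2 was called at 4 h with 0.92 and stood at -0.50 at 24 h, not called, by the authors' deposited table; centred, the Gabra3 and Gabrb2 calls were lost. The rho subunits Gabrr1, Gabrr2 and Gabrr3, known from the retina, lay between -0.19 and 0.62 over all times by the authors' deposited table and were not called.

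GABA-A genes lie side by side in the mouse genome, and neighbours differed in their calls, although differences between neighbours were not tested. In the cluster ordered Gabrg1, Gabra2, Gabra4 and Gabrb1, the inner pair was called higher at each time while the outer genes were not. Gabrg1 came to -0.06, 0.11, 0.04 and 0.03 and Gabrb1 to -0.11, 0.36, 0.77 and 0.21 by the authors' deposited table. Gabrg1 and Gabrb1 had 36.4 and 39.5 untreated reads, more than the 12.5 of Gabra2. Gabra6, another alpha subunit, was listed at 0 reads and had no fold change.

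**Figure D4:**
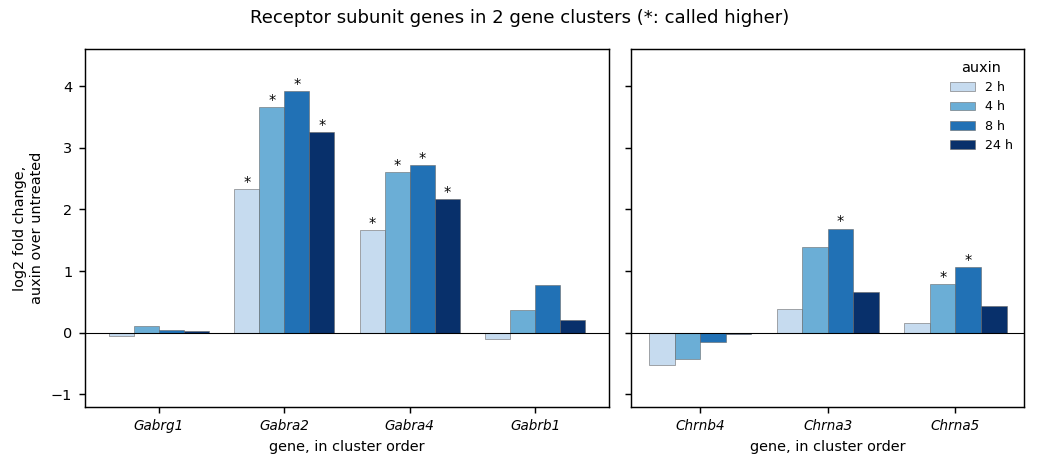
Log2 fold changes over untreated cells by the authors' deposited table (vertical axis) of genes in 2 receptor gene clusters, in cluster order (horizontal axis), at 2, 4, 8 and 24 h of auxin (light to dark bars); asterisks mark genes called higher. Gabra2 and Gabra4 reach 3.93 and 2.73 between Gabrg1 and Gabrb1, which stay at or under 0.77.

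Glycine receptors are inhibitory chloride channels of spinal cord and brainstem, built from alpha subunits and the beta subunit Glrb, which anchors them to the scaffold gephyrin. Glrb, with 139.6 untreated reads, had log2 fold changes of 1.09, 1.64, 1.64 and 1.37 by the authors' deposited table and was called higher at each time. Among the alpha genes Glra2, the embryonic alpha subunit, came to 0.29, 0.56, 0.64 and 0.93 by the authors' deposited table and was called only at 24 h (adjusted p = 0.048). Glra1 reached 0.79 at 4 h and Glra3 0.18 by the authors' deposited table, neither of them called. Glra4 had 0.939 untreated reads.

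Ionotropic glutamate receptors are cation channels and carry most fast excitation in the brain. The delta receptor gene Grid1 had the smallest adjusted p of all 93 genes at 4, 8 and 24 h. Its log2 fold changes were 1.77, 3.17, 3.57 and 3.42 by the authors' deposited table, on 408 untreated reads, with an adjusted p of 6.6e-26 at 8 h. Grid2ip came to 1.29, 0.84, 0.94 and 0.35 by the authors' deposited table, its highest at 2 h, and was called at 2, 4 and 8 h; centred, the calls at 4 and 8 h were lost.

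NMDA receptors pair the obligatory subunit GluN1 with GluN2 or GluN3 subunits. Grin1, which encodes GluN1, had log2 fold changes of -0.24, -0.07, 0.21 and 0.01 by the authors' deposited table on 309 untreated reads and was not called. Grin2a, the GluN2A subunit that dominates after birth, came to 1.04, 2.17, 2.20 and 1.97 by the authors' deposited table and was called at each time (adjusted p = 0.0043 at 2 h and 3.4e-11 at 8 h). Grin3a was also called at each time, with 0.99, 2.28, 1.99 and 1.41 by the authors' deposited table. Grin2b, the embryonic GluN2B subunit, had 1325 untreated reads and log2 fold changes of -0.04, 0.87, 1.01 and -0.26 by the authors' deposited table, and its calls at 4 and 8 h were lost when centred. Grin2c, Grin2d and Grin3b were not called.

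AMPA and kainate receptors mediate fast transmission, and kainate receptors also act before the synapse. Gria2, whose GluA2 subunit makes AMPA receptors impermeable to calcium, had log2 fold changes of 0.99, 3.18, 2.49 and 1.59 by the authors' deposited table on only 3.17 untreated reads, and was called from 4 h on. Gria4 had 2206 untreated reads, the most among AMPA genes, and log2 fold changes of -0.08, 0.49, 0.45 and 0.03 by the authors' deposited table, not called. Gria1 was called at 24 h with 0.82 and Gria3 at 4 and 8 h with 0.75 and 0.78 by the authors' deposited table, and centred these 3 calls were lost. Among kainate genes, Grik1 came to 0.73, 2.10, 1.97 and 1.65 and Grik2 to 0.18, 1.42, 1.57 and 1.17 by the authors' deposited table, both called from 4 h on.

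The 3 kainate genes with the most reads had the smallest log2 fold changes at 4, 8 and 24 h. Grik3, with 7414 untreated reads the most of all 93 genes, stood just past both thresholds at 2 h, with 0.59 and an adjusted p of 0.0497 by the authors' deposited table. It came to 0.65, 0.67 and 0.22 at 4, 8 and 24 h by the authors' deposited table, and centred it was called at no time. Grik4, with 5266 untreated reads, came to -0.22, -0.09, 0.18 and -0.46 by the authors' deposited table, and Grik5 to -0.20, 0.14, 0.57 and -0.02, neither of them called. Grik4 and Grik5 encode the subunits of high affinity, which need a subunit from Grik1, Grik2 or Grik3 to form channels.

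Metabotropic glutamate receptors couple to G proteins, group I, with Grm5, to phospholipase C and the others to inhibition of adenylyl cyclase. At 2 h 5 of 8 were higher, against 5.52% of all symbols. Grm8 had log2 fold changes of 1.36, 2.48, 2.39 and 1.37 and Grm5 of 1.49, 2.33, 1.98 and 0.88 by the authors' deposited table. Grm3, among the receptors that inhibit adenylyl cyclase, stood at 1.35, 1.89 and 1.29 at 2, 4 and 24 h by the authors' deposited table. Grm6, the receptor of retinal ON bipolar cells, came to 1.59, 2.33, 2.65 and 0.86 by the authors' deposited table on 6.12 untreated reads. Grm5 and Grm6 were not called at 24 h (adjusted p = 0.064 and 0.13), while Grm3, Grm4 and Grm8 were called at each time. Grm4 came to 0.98, 1.60, 1.28 and 1.26 by the authors' deposited table, and Grm2 was called at 8 and 24 h with 1.06 and 0.92, the first lost when centred. Grm7, with 79.3 untreated reads, reached 0.72 by the authors' deposited table without a call.

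Nicotinic receptors are cation channels opened by acetylcholine, at the neuromuscular junction and in the brain. Of the 13 genes, 0 of 12 with an adjusted p were higher at 2 h, 1 of 12 at 4 h, 3 of 10 at 8 h and 1 of 12 at 24 h, against 5.52%, 16.0%, 25.5% and 11.4% of all symbols. Chrna4, a subunit of the main nicotinic receptor of the brain, had log2 fold changes of 0.02, 0.32, 1.18 and 1.14 by the authors' deposited table and was called at 8 and 24 h. Its partner Chrnb2 came to 0.13, 0.82, 0.72 and 0.62 by the authors' deposited table, not called. Chrna7, the homomeric receptor subunit with 2676 untreated reads, came to 0.21, 0.55, 0.51 and 0.12 and Chrna9, known from cochlear hair cells, to 0.15, 0.58, 0.55 and 0.29 by the authors' deposited table, neither of them called. Chrna10, the partner of Chrna9, reached 0.71 at 24 h, and Chrna2 and Chrnb3 at most 0.24 and 0.16, by the authors' deposited table, on 7.05 or fewer untreated reads. The muscle genes Chrna1 and Chrnb1 lay between -0.30 and 0.43 by the authors' deposited table.

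The neighbours Chrnb4, Chrna3 and Chrna5 form a cluster for ganglionic receptors. Chrna5 was called at 4 and 8 h with 0.79 and 1.07, and centred both calls were lost, while Chrna3 was called at 8 h with 1.69 on 2.59 untreated reads, by the authors' deposited table. Chrnb4 came to -0.52, -0.43, -0.16 and -0.02 by the authors' deposited table on 101.2 untreated reads and was not called.

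Muscarinic receptors are the G protein-coupled acetylcholine receptors. Chrm2, the receptor that slows the heart, had log2 fold changes of 1.05, 2.74, 2.48 and 1.55 by the authors' deposited table on 4.92 untreated reads and was called from 4 h on. Chrm3, which drives glands and smooth muscle, had 1386 untreated reads and log2 fold changes of 0.16, 0.90, 0.84 and 1.11 by the authors' deposited table. It was called from 4 h on, and when centred only at 24 h. Chrm4 came to -0.03, 0.34, 0.69 and 0.45 and Chrm1 to at most 0.16 by the authors' deposited table, and neither was called. Chrm5 had 0.233 untreated reads and no adjusted p.

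Serotonin receptors are G protein-coupled except the HTR3 ion channels. Htr5b, a gene intact in rodents but not in humans, had log2 fold changes of 1.62, 2.41, 2.69 and 2.32 by the authors' deposited table and was called at each time (adjusted p = 2.2e-13 at 8 h). Its relative Htr5a came to -0.03, 0.30, -0.17 and -0.45 by the authors' deposited table, not called. Htr7, which raises cyclic AMP, came to 1.55, 2.06, 1.90 and 1.35 by the authors' deposited table and was called at each time. Htr1b, an inhibitory receptor of nerve endings, was highest at 2 h, with 2.42, 2.01, 2.23 and 1.33 by the authors' deposited table on 3.30 untreated reads, and was not called at 24 h (adjusted p = 0.058).

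Htr4 and Htr2c were called at 4 and 8 h, Htr4 with 1.35 and 1.23 and Htr2c with 1.33 and 1.31 by the authors' deposited table. The ion channel genes Htr3a and Htr3b lay between -0.26 and 0.21 by the authors' deposited table, not called. Htr1a, Htr1d, Htr1f, Htr2a and Htr6 were not called at any time, and of these Htr1f came highest, with 0.81 at 8 h by the authors' deposited table (adjusted p = 0.058). Htr2b was listed at 0 untreated reads and had no adjusted p.

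Of 5 dopamine receptor genes 1 was called, at 8 h only, against 25.5% of all symbols called higher at that time. Drd2, the target of antipsychotic drugs, had log2 fold changes of -0.05, 0.37, 0.48 and 0.10, and Drd3 of 0.04, 0.19, 0.13 and 0.33 by the authors' deposited table, on 38.2 and 40.7 untreated reads. Drd1 stayed between -0.14 and 0.50 and Drd4 between 0.27 and 0.91 by the authors' deposited table, on 7.03 and 5.28 untreated reads, and neither was called. Drd5 was called at 8 h with 2.86 (adjusted p = 0.011) by the authors' deposited table on 0.704 untreated reads, so that value rests on almost no untreated signal.

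Adrenoceptors bind noradrenaline and adrenaline. Among alpha receptors, Adra1d had log2 fold changes of 2.96, 3.16, 3.50 and 3.13 by the authors' deposited table on 6.34 untreated reads, and Adra2a, the autoreceptor of noradrenergic neurons, of 1.58, 3.00, 2.75 and 2.54 on 9.63 reads. Both were called at each time. Adra2c was listed at 0 untreated reads and was called higher at each time (adjusted p = 0.00023, 1.4e-05, 2.1e-06 and 1.3e-06), and no fold is given against a level of 0. Adra2b was called from 4 h on with 0.86, 1.29 and 1.08 by the authors' deposited table, and centred the call at 4 h was lost. Adra1a was called at 4 and 8 h with 2.40 and 1.79 by the authors' deposited table. Adra1b reached 1.13 at 8 h by the authors' deposited table on 3.17 untreated reads and was not called.

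Beta receptors raise cyclic AMP. Adrb1, the main receptor of the heart, had log2 fold changes of 2.09, 2.46, 2.25 and 1.54 by the authors' deposited table on 18.0 untreated reads and was called at each time. Adrb3 lay between -0.20 and 0.08 by the authors' deposited table, on 572 untreated reads, and was not called. Both genes are short, at 2.49 and 3.81 kb.

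At 4 h the 37 receptor genes called higher had a median length of 136.7 kb and the 48 tested but not called one of 29.0 kb, against 27.6 kb for all symbols called higher and 21.3 kb for those not called. Of 34 receptor genes of 100 kb or longer 22 were higher at 4 h, against 29.8% of symbols as long, and of 51 shorter ones with an adjusted p 15 were higher, against 13.9%. At 2 h the counts were 9 of 34 and 12 of 55, against 13.5% and 4.38%, at 8 h 22 of 34 and 19 of 47, against 34.3% and 24.1%, and at 24 h 15 of 34 and 13 of 51, against 20.2% and 9.99%. A longer gene gathers more reads at the same level, and the called and uncalled receptor genes at 4 h had medians of 63.3 and 33.7 untreated reads, with 0.570 and 0.753 normalised reads per kilobase. The part of read number in the length difference was not tested.

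Partners of these receptors were counted from lists of related genes, given as genes called higher of those with an adjusted p at 2, 4, 8 and 24 h, to be read against 5.52%, 16.0%, 25.5% and 11.4% of all symbols. Among auxiliary proteins of glutamate receptors 6 of 17, 8 of 17, 9 of 16 and 6 of 17 were higher. Shisa6, an auxiliary subunit of AMPA receptors, had log2 fold changes of 2.80, 4.73, 4.32 and 2.93, and Neto1, one of kainate receptors, of 2.04, 3.15, 3.23 and 2.19 by the authors' deposited table. Cbln2, a secreted organiser that binds delta receptors, came to 2.59, 4.05, 4.19 and 3.87 by the authors' deposited table on 2.13 untreated reads. Among excitatory scaffold genes 2 of 23, 5 of 23, 12 of 22 and 4 of 23 were higher, near the share of all symbols except at 8 h, with Homer2, which binds group I metabotropic receptors, at 1.67, 2.32, 2.57 and 2.38 by the authors' deposited table; centred, the counts were 2, 3, 5 and 3, against 5.43%, 9.68%, 10.5% and 9.56% of all symbols. Among genes of the inhibitory postsynapse 2 of 17, 6 of 17, 6 of 16 and 4 of 17 were higher, with Plcl2 at 1.01, 1.60, 1.63 and 1.28 by the authors' deposited table.

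Transporters and enzymes of the same transmitters were counted likewise. Among transporter genes 4 of 19, 7 of 18, 8 of 18 and 8 of 18 were higher at 2, 4, 8 and 24 h, against 5.52%, 16.0%, 25.5% and 11.4% of all symbols. At each time 1 transporter gene was lower, against 0.25%, 0.128%, 0.0808% and 0.602% of all symbols. The GABA transporter gene Slc6a11 had log2 fold changes of 1.72, 2.80, 3.35 and 3.47 and the noradrenaline transporter gene Slc6a2 of 1.13, 1.82, 2.13 and 2.04 by the authors' deposited table. The gene called lower was the glycine transporter Slc6a9, with -0.96, -0.96, -0.70 and -1.87 by the authors' deposited table. Among synthesis and breakdown genes 2, 4, 3 and 3 of 12 were higher, the count at 8 h near the 25.5% of all symbols, with the GABA-synthesising Gad2 at 2.61, 3.57, 3.15 and 2.45 by the authors' deposited table.

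Receptor genes outside the 93 were counted the same way, against the same 5.52%, 16.0%, 25.5% and 11.4% of all symbols. Of 2 GABA-B receptor genes, Gabbr2 had log2 fold changes of 2.04, 3.68, 4.00 and 2.89 by the authors' deposited table. It had only 15.1 untreated reads and was called at each time. Its obligatory partner Gabbr1, with 3968 untreated reads, had values of 0.24, 0.34, 0.28 and -0.11 by the authors' deposited table, not called. Of 4 further GABA-A subunits, 3 of them with an adjusted p at 8 h, 0, 1, 1 and 1 were higher, the one being Gabrq with 2.45 at 24 h by the authors' deposited table. Of 3 further muscle nicotinic subunits 0 were higher, and of 9 chaperones and partners of nicotinic receptors with an adjusted p 2, 3, 3 and 2 were, with Lypd1 at 1.34 at 2 h by the authors' deposited table. Of 21 histamine, purine, cannabinoid, opioid and other receptors with an adjusted p 2, 3, 5 and 3 were higher, close to the share of all symbols, among them the opioid receptor Oprd1 at 1.11 and the cannabinoid receptor Cnr1 at 0.97 at 2 h by the authors' deposited table.

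Marker genes of other cell types and of the stem cells themselves were counted too, against 5.52%, 16.0%, 25.5% and 11.4% of all symbols called higher at 2, 4, 8 and 24 h. Of 10 pluripotency markers 0 were called in either direction at any time, and their untreated levels summed to 14412 normalised reads per kilobase in PRC1deg. The sums for treated cells were not analysed here. Of 10 neuron markers, of which Dcx was at 0 and whose levels summed to 425.6 likewise, 2 of 10, 2 of 9, 3 of 9 and 2 of 9 with an adjusted p were higher, with Rbfox3 at 1.52 and Nefl at 1.28 at 2 h by the authors' deposited table. Of 7 neural progenitor markers, with a sum of 73.1 and 4 of them under 10 untreated reads, 3 of 7, 5 of 6, 5 of 5 and 5 of 6 were higher, with Pax6 at 2.57 at 2 h by the authors' deposited table. Of 6 primitive endoderm markers, with a sum of 23.3 and each with an adjusted p, 4, 6, 6 and 5 were higher. Of 6 muscle markers, with a sum of 24.0, 0 of 5, 0 of 2, 1 of 2 and 0 of 2 with an adjusted p were higher. Of the muscle markers Actc1 and Myf5 were at 0 untreated reads. The part of such cells in the receptor results was not tested.

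In the PRC2deg line, 2 h of dTAG-13 moved no receptor gene past the threshold. By the DESeq2 values of the authors 0 of 92 were higher and 0 lower, against 0.0% of all symbols in each direction, with or without a fold threshold; unadjusted p-values were not analysed here. The log2 fold changes of the receptor genes lay within 1.0e-05 of 0 by the authors' deposited table, 45 of them above and 47 below it. Every receptor gene had an adjusted p of 0.999956. These values appear shrunken whatever the read number, so their size gives no measure of change and cannot be set beside that of the auxin comparisons. The difference between the lines was not tested.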

How the data were processed

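Nuclear RNA-seq libraries of 2 mouse stem cell lines, 3 per group, were analysed from 5 tables of the authors, 1 per comparison, each with 20633 entries. Per the submitters' processing notes, Bowtie2, STAR, SAMtools, bedtools and DESeq2 were used with the builds mm10 and dm6; versions and strand settings were not stated, so overlapping genes are uncertain. The deposited log2 fold changes and adjusted p-values were made by the authors with DESeq2, and fold changes of genes with few reads appear shrunken. In the dTAG-13 comparison those of entries with 50 or more untreated reads appear shrunken as well, with a median of -3.8e-07. The deposited untreated signal, headed as a mean RPKM, did not behave as scaled to library size and was read as normalised reads per kilobase of gene length, introns included. Depth per library is unknown, and no interval was given.

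From these values, genes were selected by symbol, the entry with the most untreated reads (signal times length) was kept, and calls, medians and counts were computed with pandas 2.3.3. The counting was tested on simulated data. Genes were named if called at 2 h or lower at any time, if highest or lowest at 24 h or most abundant in their family, if they had 50 or more untreated reads, if part of a receptor gene cluster, or if among the 4 smallest adjusted p at 2 h of a list; others complete a family. A few receptor genes are counted but not reported here by name. The members and gene lists were chosen with earlier results of these data known, so no test over a list was made. Alternatives were a 2-fold threshold, no fold threshold, an adjusted p under 0.01, centring, and minimums of 10 or 50 untreated reads. The replicates are biological per the labels. The PRC1deg 24 h libraries carry sequencing numbers apart from those of 0 to 8 h, and run and time cannot be told apart there.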

Additional observations from a re-analysis of the deposited data

How the results depend on the processing

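With receptor genes of 50 or more untreated reads only, 8, 19, 20 and 12 of 36 were called higher at 2, 4, 8 and 24 h of auxin. The counts over all 93 genes were 21, 37, 41 and 28. The glycine class held 1 called gene at 2-fold, 1 at an adjusted p under 0.01 and 1 without the 24 h libraries (chosen after seeing the data), in place of 2. With 10 or more untreated reads 3 of 9 acetylcholine genes were called in place of 5 of all 18, and 3 of 6 serotonin genes in place of 5 of 14. Likewise 3 of 5 noradrenaline genes were called in place of 6 of 9, and 0 of 2 dopamine genes in place of 1 of 5. At an adjusted p under 0.01 the dopamine count was 0 as well. These settings test fewer genes or set a stricter threshold by construction. Of 127 calls of a gene at a time, 19 were lost at 2-fold, 26 at an adjusted p under 0.01, 18 when centred and 0 without a fold threshold, and none reversed. With the longest entry per symbol the counts at the 4 times stayed at 21, 37, 41 and 28, and with all entries they were 22, 38, 42 and 28. No paired analysis was possible because the deposited tables hold no value per library, and for the same reason no replicate was left out.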
